A study of Mus musculus with 35 samples.

Results

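Retrocopies are copies of a gene that arose when its messenger RNA was reverse transcribed and inserted elsewhere in the genome, usually without introns. The genes described here are 4 retrocopies, Atp6v0c-ps2, Eno1b, Tpm3-rs7 and Gm15920, and the 4 parent genes with which they share sequence, Atp6v0c, Eno1, Tpm3 and Ndufa12, 8 of the 52636 genes in the count tables. The copies were chosen by their read counts in these libraries, which differed by strain, and each parent was added for its sequence. The levels by strain are therefore given as a description, with a log2 fold change and its standard error but no test, and tests are kept for portion and housing.

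RNA was sequenced from laser-captured cells of the anterior and posterior basolateral amygdala of 19 female mice. The C57BL/6J mice, an inbred strain, were housed in standard cages (4 anterior and 4 posterior libraries) or in an enriched environment with 1 hour a day in a playground cage (2 and 4 libraries). The B6D2F1N mice, hybrids of a C57BL/6 and a DBA/2 parent, were housed in standard cages (5 and 5 libraries) or in the enriched environment (5 and 6 libraries). All mice were fed a restricted diet and trained on a touchscreen from postnatal day 70 for 37 to 90 days, depending on how fast each learned, with the housing treatment from postnatal day 77, and then took a cognitive judgment bias test of 5 days, so that age at sampling differed between mice. The labels name no added allele or drug. Each library is 1 portion of 1 mouse, and 1 inbred line is compared with 1 hybrid cross. The sources give bregma ranges for the 2 portions that appear to be interchanged, and the portions are named here as in the sample labels.

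The parents are genes that nearly every cell uses. Atp6v0c encodes the subunit that forms the proton-carrying ring of the vacuolar ATPase, the pump that acidifies lysosomes and synaptic vesicles. Eno1 encodes a glycolytic enzyme, enolase, which makes phosphoenolpyruvate. Tpm3 encodes a tropomyosin, a coiled protein that lies along actin filaments, and Ndufa12 encodes an accessory subunit of complex I, the first enzyme of the mitochondrial respiratory chain. Retrocopies of such genes are common in mammalian genomes, and most are not known to make a protein.

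All 4 copies lie on other chromosomes than their parents in the annotation of GRCm38 used here (GENCODE M21). Atp6v0c-ps2 (ENSMUSG00000080242; chromosome 6, 37806086 to 37806550, plus strand) is a processed pseudogene of 1 exon, while Atp6v0c (ENSMUSG00000024121) lies on chromosome 17 (24163866 to 24169702, minus strand) with up to 4 exons. Gm15920 (ENSMUSG00000080893; chromosome 5, 130188395 to 130188796, plus strand) is a processed pseudogene inside an intron of Rabgef1 on the same strand and overlaps none of its exons, and Ndufa12 (ENSMUSG00000020022) lies on chromosome 10 (94198720 to 94221443, plus strand). Tpm3-rs7 (ENSMUSG00000058126; chromosome 14, 113314608 to 113316754, plus strand) has 1 exon and is annotated as protein coding, and Tpm3 (ENSMUSG00000027940) lies on chromosome 3 (90072649 to 90100902, plus strand).

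A read of 72 bases can be told apart between a copy and its parent only where it covers a base that differs. The stretches printed here hold every coding base that such a read can include for 3 pairs, and the capitals mark the differing bases. Atp6v0c-ps2 differs from Atp6v0c at 1 of 465 aligned bases (T111C, with the parent's base first and positions counted from 1 at the first base of the copy), an identity of 99.78%, and bases 40 to 182 are shown.
Atp6v0c-ps2: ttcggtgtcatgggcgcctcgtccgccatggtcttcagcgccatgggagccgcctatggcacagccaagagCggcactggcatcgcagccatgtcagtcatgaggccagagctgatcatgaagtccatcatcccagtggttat
Atp6v0c: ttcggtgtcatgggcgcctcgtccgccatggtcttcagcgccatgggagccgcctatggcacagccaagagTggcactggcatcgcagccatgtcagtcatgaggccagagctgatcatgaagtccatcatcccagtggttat
Gm15920 differs from Ndufa12 at 2 of 402 bases (A99G and T378C), an identity of 99.5%, and bases 28 to 170 and 307 to 402 of the copy are shown, which align to bases 64 to 206 and 343 to 438 of the parent's coding sequence.
Gm15920, bases 28 to 170: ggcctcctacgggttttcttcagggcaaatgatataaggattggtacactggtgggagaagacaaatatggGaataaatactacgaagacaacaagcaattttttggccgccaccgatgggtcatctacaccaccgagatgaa
Ndufa12, bases 64 to 206: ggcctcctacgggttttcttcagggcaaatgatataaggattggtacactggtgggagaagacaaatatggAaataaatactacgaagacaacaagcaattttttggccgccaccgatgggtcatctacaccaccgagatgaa
Gm15920, bases 307 to 402: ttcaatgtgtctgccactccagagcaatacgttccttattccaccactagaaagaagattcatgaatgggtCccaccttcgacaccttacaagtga
Ndufa12, bases 343 to 438: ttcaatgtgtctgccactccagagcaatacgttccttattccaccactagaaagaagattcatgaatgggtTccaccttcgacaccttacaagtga
Tpm3-rs7 differs from Tpm3 at 13 bases and in 3 gaps over 2108 aligned columns, an identity of 99.1%. In the coding sequence of the parent the differences are G140A, G166A and G195A, which fall in bases 69 to 266 of the copy and in the first 198 bases of the coding sequence.
Tpm3-rs7: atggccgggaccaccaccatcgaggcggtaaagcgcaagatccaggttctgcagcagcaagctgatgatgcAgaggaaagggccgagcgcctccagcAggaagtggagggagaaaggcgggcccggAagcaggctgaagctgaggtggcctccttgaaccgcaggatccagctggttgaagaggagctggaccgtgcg
Tpm3: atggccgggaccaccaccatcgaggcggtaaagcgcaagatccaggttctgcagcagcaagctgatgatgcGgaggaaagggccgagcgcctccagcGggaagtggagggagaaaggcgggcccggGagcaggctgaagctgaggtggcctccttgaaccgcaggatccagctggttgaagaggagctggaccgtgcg

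Eno1b differs from Eno1 at 9 of 1652 aligned bases, 8 of them in the coding sequence of the parent, an identity of 99.46%, and its sequence is not shown. Eno1b (ENSMUSG00000059040; chromosome 18, 48045335 to 48048412, plus strand) is annotated as protein coding with up to 2 exons and overlaps the annotated transcript AC150274.2, and Eno1 (ENSMUSG00000063524) lies on chromosome 4 (150236721 to 150248879, plus strand).

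Read-length windows of the annotated transcripts show how little of each copy is its own. Of the 394 windows of 72 bases in Atp6v0c-ps2, 322 (81.7%) occur without a difference in Atp6v0c, and the other 72 hold the differing base. Of the 331 windows of Gm15920, 234 (70.7%) occur in Ndufa12, and of the 2076 windows of Tpm3-rs7, 1244 (59.9%) occur in Tpm3. Eno1b has 1720 windows, of which 1185 (68.9%) occur in Eno1 and 1382 (80.3%) in Eno1 or another annotated gene. In the parents the shared part is smaller where the copy lacks their untranslated ends, at 29.0% of the windows of Atp6v0c and 22.5% of those of Ndufa12, and larger in Tpm3 (57.6%) and Eno1 (66.3% shared with any gene). These windows come from the reference genome, which is that of C57BL/6J, and the DBA/2 sequence of the same loci was not used here.

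The libraries held 16938534 to 27352623 reads counted on genes (median 21409708), and 6.23% to 10.9% of the reads tallied were set aside by the counting program as aligning at more than 1 place. No 2 of the 35 libraries held identical counts. Neurons of the basolateral amygdala express Slc17a7 and Camk2a, and both were detected in every library (72.9 to 888 and 774 to 4644 CPM, read counts scaled to a common library size with the trimmed mean of M values). The excitatory markers Neurod6 and Rspo2 varied more widely, at 9.43 to 240 and 0.0427 to 310 CPM, so that Rspo2 was nearly absent at its lowest. All mice are labelled female, and 33 of the libraries held at least 1191 counts of Xist, a transcript of the inactive X chromosome. Both libraries of B6D2F1N standard mouse 1 held 0 counts of Xist, which allows up to 3 counts a library, with at most 1 count over 4 Y-linked genes, and the strain and portion differences of copies, parents and sums that include that mouse are given with and without it. Levels are from captured tissue, so that fewer cells of a type and less RNA per cell cannot be told apart. The labels do not name litters or separate cages. Mice lived in cages of 3 from the same strain, and enriched housing was given to whole cages. Differences between cages therefore cannot be told apart from those of housing. The p-values measure the spread between these mice and not that between cages.

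Counts of all 4 copies were higher in every B6D2F1N library than in every C57BL/6J library of the same housing and portion. This is what the choice of the copies asked for, and it is described here without a test. As background, 0.325% of the 24305 genes tested in the standard anterior comparison passed an adjusted p of 0.05 in edgeR's quasi-likelihood test as higher in B6D2F1N, and 0.318%, 0.0597% and 0.339% in the standard posterior, enriched anterior and enriched posterior comparisons. The shares called as lower were 0.0453%, 0.0556%, 0.00426% and 0.0546% in the same order. The share of all genes whose libraries do not overlap between the strains is not given here. A lack of overlap, also of a parent or a sum, is therefore a description of these libraries only. All 8 members passed the minimum of 10 counts in each comparison. Gm15920 passed it in the enriched anterior comparison through the B6D2F1N libraries alone, since both C57BL/6J libraries together held 4 counts.

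Atp6v0c-ps2 had the highest level of the 4 copies. In the anterior amygdala of standard-housed mice it was at 5.45, 6.40, 5.89 and 5.59 CPM in the 4 C57BL/6J libraries and at 299, 210.3, 126, 230.4 and 202 CPM in the 5 B6D2F1N libraries. Every B6D2F1N value lay far above every C57BL/6J value. In the posterior amygdala the values were 3.43, 3.12, 2.81 and 2.93 CPM in C57BL/6J and 182, 98.5, 105, 127 and 146 CPM in B6D2F1N, so that the groups again lay far apart. In the enriched environment the copy was at 4.03 and 7.27 CPM in the 2 anterior C57BL/6J libraries and at 114, 244, 164, 327 and 234 CPM in the 5 B6D2F1N libraries. In the posterior portion it was at 4.61, 3.11, 3.09 and 2.90 CPM in C57BL/6J and, as lowest, median and highest of 6, at 78.8, 137 and 219 CPM in B6D2F1N. The ratio of group means was 36.6, 42.9, 38.4 and 41.1-fold in the standard anterior, standard posterior, enriched anterior and enriched posterior comparisons, an order kept for the 4 values of each list that follows. The log2 fold changes were 5.19, 5.43, 5.29 and 5.37, with standard errors of 0.26, 0.26, 0.52 and 0.32, and without B6D2F1N standard mouse 1 the values in standard housing were 5.05 and 5.29.

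Atp6v0c, its parent, lay the other way. In the standard anterior amygdala the 4 C57BL/6J libraries were at 579.7, 752, 504 and 600.2 CPM and the 5 B6D2F1N libraries at 388, 283, 161, 311 and 279.7 CPM. In the posterior portion they were at 341, 406, 323 and 381 CPM and at 259, 137, 142, 183 and 198 CPM. In standard housing, then, every B6D2F1N library lay below every C57BL/6J library in both portions, a description with no share of all genes beside it. In the enriched environment the anterior values were 438 and 466 CPM in C57BL/6J and 149, 320.5, 215, 438 and 308 CPM in B6D2F1N, with 1 B6D2F1N library above the lower C57BL/6J value. The posterior values were 421, 257, 326 and 284 CPM in C57BL/6J and 118, 184 and 288 CPM (lowest, median and highest) in B6D2F1N, and the groups overlapped as well. Group means in B6D2F1N were 46.7, 50.7, 63.4 and 57.7% of those in C57BL/6J. The log2 fold changes were -1.10, -0.97, -0.63 and -0.78 with standard errors of 0.22, 0.21, 0.35 and 0.23, and without B6D2F1N standard mouse 1 those in standard housing were -1.22 and -1.12.

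The sum of Atp6v0c-ps2 and Atp6v0c counts once each read that was placed on either of the 2 genes. Reads set aside as aligning at more than 1 place are in neither gene, and their part by strain was not tested. The sum, for this and the other pairs, leaves them out and is therefore not the pair's total. It was at 615 ± 104 CPM (SD, n = 4) in C57BL/6J and 498 ± 143 CPM (SD, n = 5) in B6D2F1N in the standard anterior amygdala, and at 366 ± 37.7 and 315 ± 83.1 CPM (n = 4 and 5) in the posterior. In the enriched environment it was at 457 ± 22.0 and 503 ± 192 CPM (n = 2 and 5) in the anterior and at 326 ± 72.5 and 327 ± 102 CPM (n = 4 and 6) in the posterior portion. The libraries of the strains overlapped in all 4 comparisons. The log2 fold changes of the sum were -0.30, -0.20, 0.16 and 0.02, with standard errors of 0.22, 0.21, 0.37 and 0.24, against -1.10, -0.97, -0.63 and -0.78 for the parent alone. In CPM, B6D2F1N minus C57BL/6J was 208 for the copy and -324 for the parent in the standard anterior comparison, and 137 and -136 in the enriched posterior comparison. Without B6D2F1N standard mouse 1, the sum's values in standard housing were -0.43 and -0.35.

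**Figure D1:**
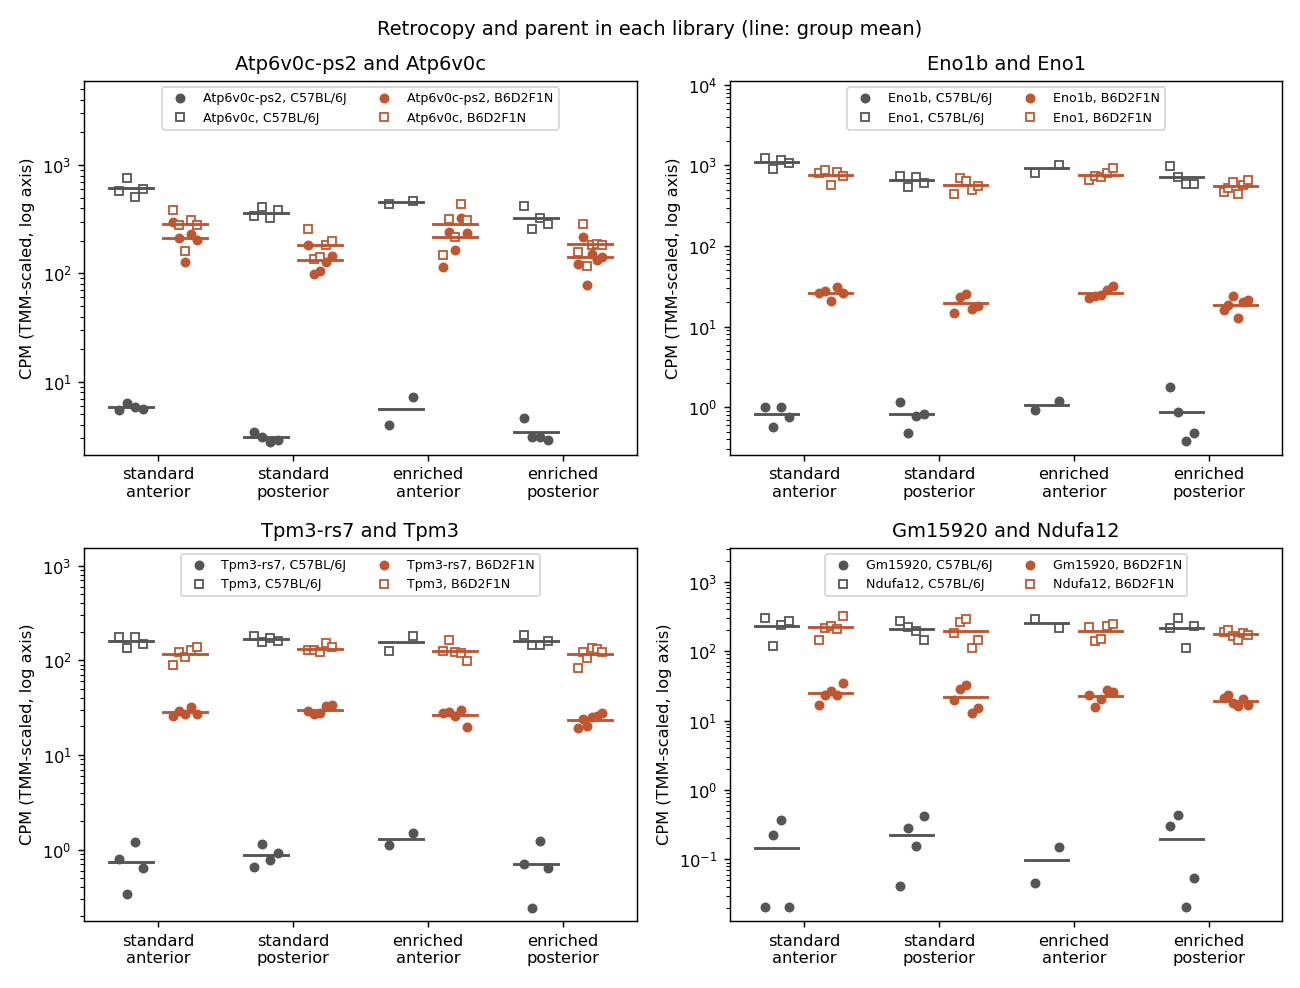
CPM (log axis) of each retrocopy (filled circles) and its parent (open squares) in every library, by housing and portion, for C57BL/6J (grey) and B6D2F1N (orange), with a line at each group mean. The 3 libraries with 0 counts of Gm15920 are drawn below the lowest value above 0 of that panel. The filled orange points lie above all filled grey points in every group, from 12.8 CPM upward for Gm15920 in B6D2F1N against at most 0.437 CPM in C57BL/6J.

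Tpm3-rs7 was at 0.243 to 1.50 CPM over the C57BL/6J libraries and at 19.2 to 33.7 CPM over the B6D2F1N libraries. The 4 C57BL/6J libraries of the standard anterior amygdala were at 0.794, 0.337, 1.19 and 0.634 CPM and the 5 B6D2F1N libraries at 25.6, 29.2, 26.9, 32.0 and 26.9 CPM. In the posterior portion they were at 0.661, 1.14, 0.779 and 0.929 CPM and 28.7, 26.9, 27.5, 32.6 and 33.7 CPM. No C57BL/6J value came near those of B6D2F1N. In the enriched environment the copy was at 1.11 and 1.50 CPM in C57BL/6J and 27.9, 28.3, 26.0, 29.5 and 19.6 CPM in B6D2F1N in the anterior portion, and at 0.696, 0.243, 1.24 and 0.645 CPM and 19.2, 24.4 and 27.6 CPM (lowest, median and highest of 6) in the posterior. The ratios of means were 38.1, 34.1, 20.1 and 33.4, the log2 fold changes 5.22, 5.09, 4.35 and 5.06 and their standard errors 0.36, 0.29, 0.46 and 0.40. Without B6D2F1N standard mouse 1 the standard-housing values were 5.26 and 5.11.

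Tpm3, the parent, had group means of 159 ± 21.0 CPM (SD, n = 4) in C57BL/6J and 117 ± 19.1 CPM (SD, n = 5) in B6D2F1N in the standard anterior amygdala. Every B6D2F1N library was below every C57BL/6J library in the posterior portion of both housings, at 122 to 151 against 157 to 181 CPM in standard and at 83.7 to 136 against 144 to 184 CPM in enriched housing. In both anterior comparisons the strains overlapped. The log2 fold changes were -0.44, -0.32, -0.28 and -0.42, with standard errors of 0.18, 0.17, 0.27 and 0.18. With Tpm3-rs7 added, the sum was 159.5 ± 21.3 and 145 ± 20.6 CPM in the standard anterior and 168 ± 10.6 and 163 ± 14.3 CPM in the standard posterior comparison, and its log2 fold changes were -0.13, -0.04, -0.01 and -0.16 with standard errors of 0.18, 0.17, 0.27 and 0.18. In standard housing without B6D2F1N mouse 1, Tpm3 was at -0.35 and -0.30 and the sum at -0.05 and -0.02. The strains overlapped in the sum in all 4 comparisons. In each of them the copy's gain, 22.9 to 29.0 CPM, was smaller than the parent's difference of -41.65 to -29.36 CPM.

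Eno1b was at 0.386 to 1.78 CPM over the 14 C57BL/6J libraries and at 12.9 to 31.9 CPM over the 21 B6D2F1N libraries. In the standard anterior portion the C57BL/6J libraries were at 1.02, 0.561, 1.00 and 0.749 CPM and the B6D2F1N libraries at 25.9, 27.9, 20.6, 31.0 and 25.9 CPM. In the standard posterior portion they were at 1.16, 0.486, 0.779 and 0.836 CPM and 14.9, 23.4, 25.3, 16.7 and 17.8 CPM. Enriched housing gave the same order of strains, with 0.926 and 1.20 against 23.0, 23.7, 24.9, 28.9 and 31.9 CPM in the anterior portion and 1.78, 0.874, 0.386 and 0.484 against 12.9, 19.2 and 23.8 CPM (lowest, median and highest of 6) in the posterior. The ratios of means were 31.5, 24.1, 24.9 and 21.2, and the log2 fold changes 4.96, 4.60, 4.66 and 4.40 with standard errors of 0.32, 0.37, 0.46 and 0.46. They were 4.97 and 4.69 in standard housing without B6D2F1N standard mouse 1, and the enriched posterior value was 5.02 without C57BL/6J enriched mouse 1.

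Eno1 itself was the most abundant of the 8 genes by counts in both strains. In the standard anterior amygdala the C57BL/6J libraries were at 1240.0, 902, 1157 and 1079 CPM and the B6D2F1N libraries at 795, 866, 568, 840.1 and 744 CPM, with all B6D2F1N values below all C57BL/6J values. In the other 3 comparisons the strains overlapped. The log2 fold changes were -0.52, -0.19, -0.23 and -0.38, with standard errors of 0.18, 0.21, 0.26 and 0.21. Adding Eno1b moved these values little, to -0.47, -0.14, -0.18 and -0.33 and standard errors of 0.18, 0.21, 0.27 and 0.21, and in the standard anterior comparison the sum of every B6D2F1N library still lay below every C57BL/6J sum (588 to 893 against 903 to 1241 CPM). Without B6D2F1N standard mouse 1, the standard-housing values were -0.53 and -0.11 for Eno1 and -0.48 and -0.06 for the sum. Of genes tested in the standard anterior comparison with copies and parents summed, 0.0412% were called lower in B6D2F1N.

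Gm15920 was close to absent in C57BL/6J. The 4 standard anterior libraries held 0, 4, 8 and 0 counts, the 4 standard posterior libraries 1, 7, 4 and 9, the 2 enriched anterior libraries 1 and 3 and the 4 enriched posterior libraries 7, 9, 0 and 1 counts. The B6D2F1N libraries held 299 to 892 counts. A count of 0 allows up to 3 counts, which in the library with the fewest counts of the pair is a share of 0.114% of Gm15920 and Ndufa12 together. In CPM, the B6D2F1N values were 16.9, 23.4, 26.6, 23.6 and 35.1 in the standard anterior, 19.6, 28.0, 32.3, 12.8 and 15.4 in the standard posterior and 23.1, 15.8, 20.2, 27.4 and 25.4 in the enriched anterior group, and 16.2, 19.0 and 23.1 (lowest, median and highest of 6) in the enriched posterior group. From the summed counts and library totals, the ratios of B6D2F1N to C57BL/6J were 155 (95% exact interval 88.8 to 301), 101 (66.0 to 164), 231 (90.1 to 848) and 96.6 (60.2 to 166), which cover counting error only. The fitted log2 fold changes, 7.27, 6.59, 7.79 and 6.56 with standard errors of 0.62, 0.55, 0.70 and 0.62, depend on the small count added to values near 0. In standard housing they were 7.39 and 6.63 without B6D2F1N standard mouse 1. Leaving out 1 C57BL/6J library moved them further, from 7.27 to 8.28 in the standard anterior comparison (mouse 3), from 7.79 to 7.20 or 8.74 in the enriched anterior one (mouse 1 or 3) and from 6.56 to 7.26 in the enriched posterior one (mouse 2).

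Ndufa12 had overlapping levels in the strains. Its means were 233 ± 79.1 CPM (SD, n = 4) in C57BL/6J and 223 ± 61.8 CPM (SD, n = 5) in B6D2F1N in the standard anterior and 209 ± 53.9 and 197 ± 74.8 CPM (n = 4 and 5) in the standard posterior amygdala. The strains overlapped in all 4 comparisons, with log2 fold changes of -0.07, -0.06, -0.34 and -0.28 and standard errors of 0.27, 0.29, 0.30 and 0.24. The sum with Gm15920 overlapped in all 4 as well, with log2 fold changes of 0.09, 0.09, -0.19 and -0.13 and standard errors of 0.27, 0.29, 0.30 and 0.24. Ndufa12 was at 0.06 and -0.03 and the sum at 0.21 and 0.12 in standard housing without B6D2F1N mouse 1, so that the sign of Ndufa12 turned in the anterior portion.

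**Figure D2:**
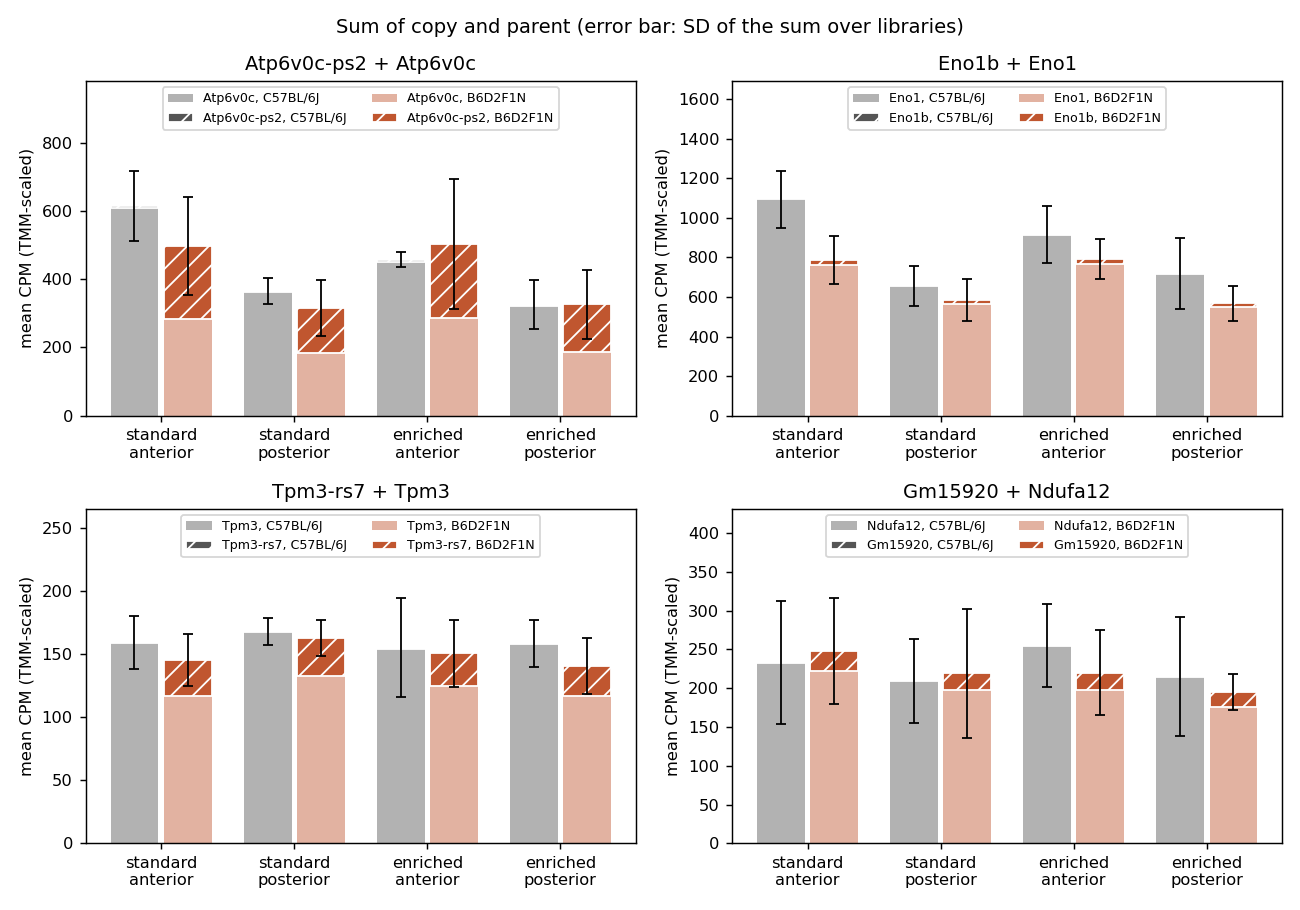
Mean CPM of each parent (plain bar) with its copy stacked on top (hatched), by housing and portion, for C57BL/6J (grey) and B6D2F1N (orange), with the SD of the sum over libraries as error bar. In the Atp6v0c panel the hatched part makes up 42.9% of the pair's counts in the standard anterior B6D2F1N libraries, and the bar heights are 615 and 498 CPM there against 326 and 327 CPM in the enriched posterior group.

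**Figure D3:**
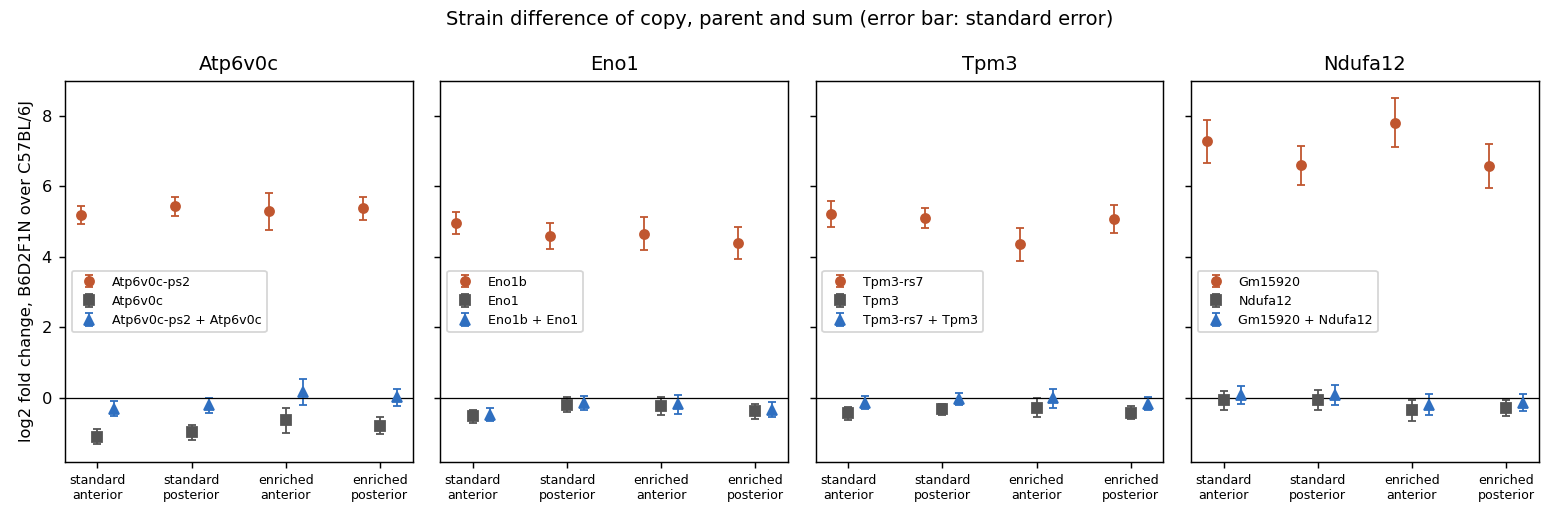
Log2 fold change (B6D2F1N over C57BL/6J) of each copy (orange circles), parent (grey squares) and their sum (blue triangles) in the 4 strain comparisons, with the standard error as error bar. The copies lie between 4.35 and 7.79, the parents between -1.10 and -0.06, and the sums between -0.47 and 0.16.

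The differences of parents and copies were not alike in size across pairs. Over the 4 comparisons the gain of the copy in CPM was 128.5 to 211 for Atp6v0c-ps2, 17.85 to 25.4 for Eno1b, 22.9 to 29.0 for Tpm3-rs7 and 19.1 to 24.9 for Gm15920. The difference of the parent, B6D2F1N minus C57BL/6J, was -324 to -136 CPM for Atp6v0c, -332 to -86.7 for Eno1, -41.65 to -29.36 for Tpm3 and -57.1 to -10.4 for Ndufa12. The sum ended higher in B6D2F1N in 2 comparisons for Atp6v0c (by 45.7 and 1.10 CPM, both enriched), in 2 for Ndufa12 (by 14.6 and 9.79 CPM, both standard) and in none for Eno1 and Tpm3. None of these differences of sums was tested. In the enriched posterior amygdala the summed level of 5 oligodendrocyte markers also differed between the strains without overlap, at 17530 to 27230 CPM in C57BL/6J and 6610 to 15830 CPM in B6D2F1N, and its part in the values there was not tested.

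Shares of a pair's counts do not depend on the scaling of a library. Atp6v0c-ps2 held 40.1, 42.8 and 45.1% (lowest, median and highest) of the pair's counts over the 21 B6D2F1N libraries and 0.761, 0.934 and 1.54% over the 14 C57BL/6J libraries. For Tpm3-rs7 the shares were 14.8, 18.4 and 22.3% and 0.168, 0.451 and 0.870%. Both ranges lay far apart between the strains. Gm15920 held 8.89, 10.1 and 11.9% in B6D2F1N and 0, 0.0746 and 0.290% in C57BL/6J, and Eno1b 2.82, 3.33 and 3.75% and 0.0621, 0.0986 and 0.183%. Within B6D2F1N the share of Atp6v0c-ps2 varied by a coefficient of variation of 2.68%, although the CPM of the copy itself varied by 38.4%. For Gm15920 the same figures were 6.04% and 26.3%, for Eno1b 6.30% and 23.1%, and for Tpm3-rs7 10.2% and 14.5%. With B6D2F1N standard mouse 1 left out, the mean shares of the standard anterior and posterior B6D2F1N libraries were 42.8 and 41.9% for Atp6v0c-ps2, 18.9 and 18.3% for Tpm3-rs7, 10.1 and 9.89% for Gm15920 and 3.39 and 3.36% for Eno1b.

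**Figure D4:**
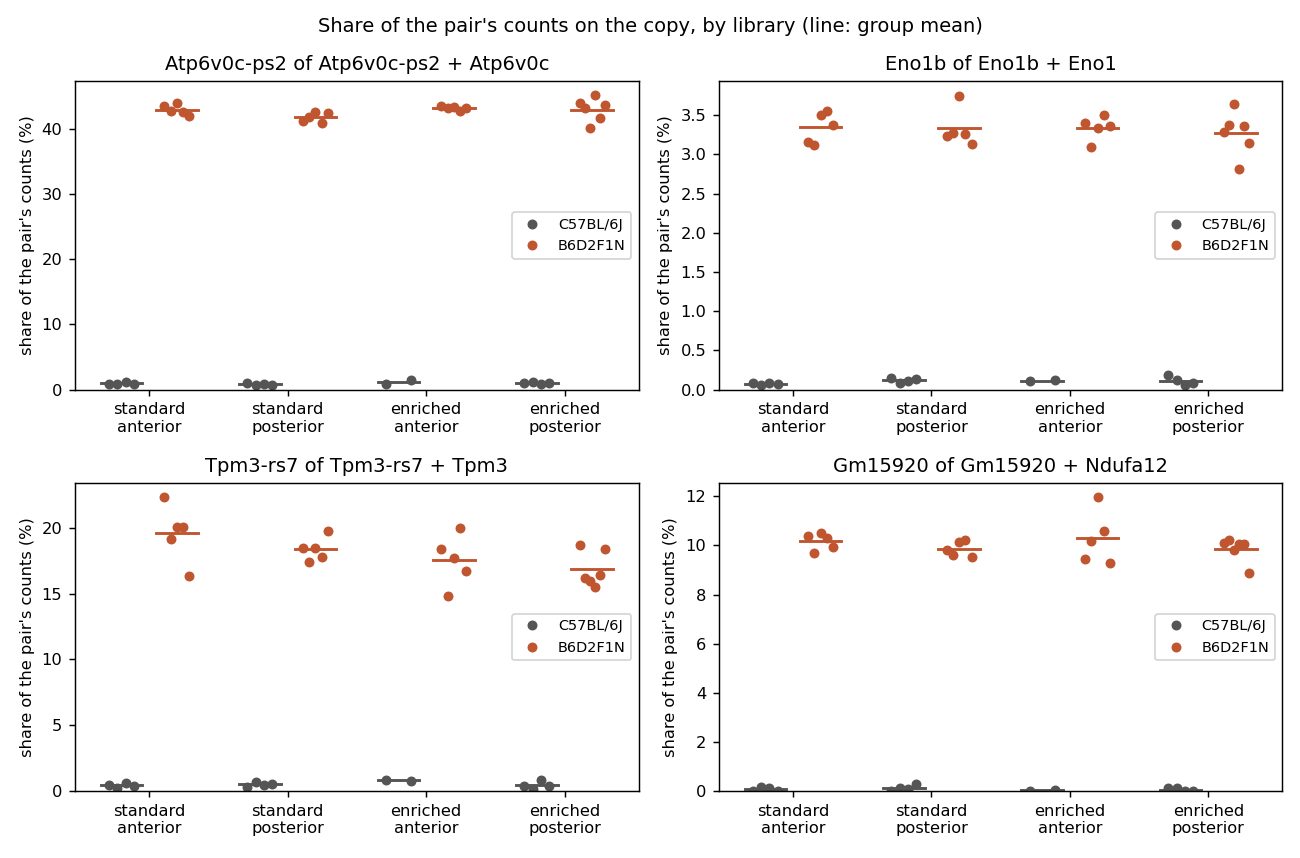
Share (percent) of the counts of copy and parent together that fell on the copy in each library, by housing and portion, for C57BL/6J (grey) and B6D2F1N (orange), with a line at each group mean. The B6D2F1N points lie at 40.1% to 45.1% for Atp6v0c-ps2, 2.82% to 3.75% for Eno1b, 14.8% to 22.3% for Tpm3-rs7 and 8.89% to 11.9% for Gm15920, while the C57BL/6J points lie near 0.

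Levels of 2 genes can be compared only per length, and here per window that occurs in no other annotated gene. Windows were counted on 1 annotated transcript of each gene, for a parent the coding transcript that aligned best to the copy. The counts are of the whole gene, which for the parents has 4 (Ndufa12) to 16 (Tpm3) annotated transcripts. The effect of this choice on the ratios was not tested. Atp6v0c-ps2 has 72 such windows and Atp6v0c 790, so that the copy holds 8.35% of the pair's own windows. Per 100 own windows, the CPM of B6D2F1N libraries was 242 ± 92.9 for the copy and 29.5 ± 11.1 for the parent (SD, n = 21). The copy's CPM per own window was 7.35, 8.19 and 9.01 times the parent's (lowest, median and highest over B6D2F1N libraries) and 0.0842, 0.104 and 0.171 times in C57BL/6J. Gm15920, with 97 own windows against 805 of Ndufa12, was at 22.6 ± 5.95 for the copy and 24.5 ± 6.56 for the parent in B6D2F1N, a ratio of 0.810, 0.927 and 1.13, and at 0, 0.00620 and 0.0241 in C57BL/6J. For Tpm3-rs7 (832 own windows against 915) the ratios were 0.191, 0.247 and 0.315 in B6D2F1N and 0.00185, 0.00498 and 0.00966 in C57BL/6J. For Eno1b (338 against 660) they were 0.0566, 0.0673 and 0.0760 in B6D2F1N and 0.00121, 0.00193 and 0.00358 in C57BL/6J. In B6D2F1N, then, the order of the copies by CPM per own window relative to the parent was Atp6v0c-ps2, Gm15920, Tpm3-rs7 and Eno1b, and no neighbours in that order overlapped. The own windows are those of the C57BL/6J reference, while B6D2F1N mice also carry DBA/2 sequence. Its effect on where reads were placed was not tested. The ratios therefore describe counts placed on each gene and do not measure how much transcript each gene makes.

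The other genes of the parents' pathways were set beside these values. Of 22 genes of the vacuolar ATPase, 20 to 21 were tested in each strain comparison and none passed the adjusted p of edgeR's quasi-likelihood test or of DESeq2. At an unadjusted p under 0.05 there were 2, 0, 0 and 2 in edgeR, and the median log2 fold changes were -0.24, -0.12, 0.14 and -0.07, against 0.02, 0.05, 0.03 and 0.03 over all genes tested. Among 17 glycolysis genes, 0 passed in either tool, with 2, 2, 0 and 1 under an unadjusted p of 0.05 and medians of -0.19, -0.06, -0.02 and -0.18. None of 8 tropomyosins and thin-filament partners passed in either tool (1, 1, 0 and 1 unadjusted, medians of -0.03, 0.13, 0.01 and -0.33), nor did any of 37 complex I genes (0, 1, 1 and 0 unadjusted, medians of 0.01, 0.19, -0.15 and -0.03). In all genes tested, 0.37%, 0.373%, 0.0639% and 0.394% were called in the 4 comparisons. Leaving out B6D2F1N standard mouse 1 raised the genes called in the standard posterior comparison from 94 to 166, and still no gene of the 4 lists was called by edgeR in either standard comparison (unadjusted p under 0.05 for 4, 2, 0 and 0 genes in anterior libraries and for 3, 3, 1 and 1 in posterior ones, in the order of the lists).

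The parents have further copies in the annotation, and 3 of the 10 that held any count had all B6D2F1N libraries above all C57BL/6J libraries. The share of all genes, or of all pseudogenes, that lie apart in this way is not given here. The separation is therefore not read as particular to copies of these parents. By alignment of at least 200 bases at 85% identity or more, 20 other copies were found (1 of Atp6v0c, 11 of Eno1, 8 of Tpm3 and none of Ndufa12), of which 18 are in the count tables and 10 held any count. Gm5855, a processed pseudogene 96.33% identical to Eno1, held 0 to 4 counts in C57BL/6J libraries and 40 to 151 in B6D2F1N libraries. With 15 counts over all C57BL/6J libraries, Gm5855 passed the minimum of 10 counts in a comparison largely through B6D2F1N. This copy was called higher in B6D2F1N in the standard anterior (6.77 ± 0.76 on the log2 scale, with the standard error, adjusted p = 0.00025 in edgeR), standard posterior (5.33 ± 0.68, adjusted p = 0.00135) and enriched posterior comparison (7.57 ± 0.93, adjusted p = 0.000596). Gm4735, 99.62% identical, with 1 to 10 counts in the C57BL/6J and 11 to 71 in the B6D2F1N libraries, was called in the enriched posterior comparison (4.25 ± 0.81, adjusted p = 0.0271). Gm8483, 94.32% identical, held 0 to 6 and 7 to 38 counts and was called in none of the 4. Gm5855 kept, without B6D2F1N standard mouse 1, both standard-housing calls in edgeR (6.78 and 5.39, adjusted p = 0.0006 and 0.0026), and Gm4735 was also called in the standard posterior comparison (4.00, adjusted p = 0.0386, against 3.78 and 0.083 with that mouse). With DESeq2, 3, 3, 1 and 2 of the 6 copies tested were called. Atp6v0c-ps1, the other copy of Atp6v0c, overlapped between the strains (0 to 22 counts in the C57BL/6J libraries, 1 to 28 in the others), and the 8 other copies of Tpm3 held 0 to 4 counts in any library. Gm5855, Gm4735 and Gm8483 share windows with Eno1 and Eno1b, so that reads can be split among these genes. The calls of Gm5855 and Gm4735 are therefore not independent of Eno1b, which was chosen for its strain difference.

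Genes next to the copies were compared in the same fits. Within 50 kb of a copy, and leaving out other copies of the parents, 7 genes are annotated, 6 around Gm15920 and 1 at Eno1b, with none near Atp6v0c-ps2 or Tpm3-rs7. Of these, 6 are in the count tables and 5 were tested, of which none was called by edgeR in a strain comparison and none had an unadjusted p under 0.05. DESeq2 called none either, with 1 under an unadjusted p of 0.05 in the standard posterior comparison. Rabgef1, the host gene of Gm15920, which encodes an exchange factor of endosomal Rab proteins, was at 48.8 ± 3.74 CPM (SD, n = 4) in C57BL/6J and 52.7 ± 9.88 CPM (SD, n = 5) in B6D2F1N in the standard anterior amygdala, which on the log2 scale is a difference of 0.11 with a standard error of 0.19 (adjusted p = 0.951 in edgeR). Without B6D2F1N standard mouse 1 the difference of Rabgef1 was 0.21 (adjusted p = 0.763 in edgeR), and none of the 5 neighbours was called in either standard comparison, with 1 under an unadjusted p of 0.05 in the posterior portion.

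Genes whose level over the 35 libraries was most like that of a copy were mostly other processed pseudogenes. By Pearson's r of log2 CPM among 16014 genes with a mean of at least 1 CPM, the nearest to Atp6v0c-ps2 were Gm1833 (r = 0.99), Serpina3m (0.98) and Gm1840 (0.98). The nearest to Eno1b were Gm5802 (0.99), Gm3375 (0.98) and Gm13394 (0.98), those to Tpm3-rs7 were Gm13394 (0.98), Gm5855 (0.98) and Gm14513 (0.98), and those to Gm15920 were Gm15610 (0.985), Glns-ps1 (0.98) and Gm8420 (0.98). Gm5802, for example, was at 0.262 ± 0.21 CPM (SD, n = 14) in C57BL/6J and 58.0 ± 15.4 CPM (SD, n = 21) in B6D2F1N. Such a likeness largely restates the strain difference that chose the copies, and the points share library depth and composition. Within the 21 B6D2F1N libraries alone, the parent was the gene most like the copy for Atp6v0c-ps2 (r = 0.99), Eno1b (0.97) and Gm15920 (0.97), and it ranked 38 for Tpm3-rs7 (0.69). The part of reads placed on the partner gene in these values was not tested. Parents left out, the nearest genes there were Shisa5 (0.97), Atp6ap2 (0.96), which encodes an accessory protein of the vacuolar ATPase, and Chst1 (0.96) for Atp6v0c-ps2. For Eno1b they were Aldoa (0.95), Pgam1 (0.90), both glycolytic enzymes, and Got1 (0.90), for Gm15920 Dynlrb1 (0.93), Ndufb8 (0.93), a complex I subunit, and Atp5o (0.92), and for Tpm3-rs7 Scn3b (0.82), Kbtbd2 (0.81) and Mbnl1 (0.80).

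Copy and parent were also compared from mouse to mouse within a strain and portion, a measure added after the values were seen. There were 16 such relations, with Benjamini-Hochberg adjustment over the 16, and 1e-05 is the smallest p that 100000 permutations can give. In the 10 anterior B6D2F1N libraries, the CPM of Atp6v0c-ps2 and Atp6v0c gave r = 1.00 (permutation p = 1e-05, adjusted p = 5.33e-05) and rho = 0.99 (permutation p = 1e-05, adjusted p = 8e-05), with r = 1.00 once the 2 libraries farthest from the median were left out. In the 11 posterior libraries the pair gave r = 0.98 (permutation p = 1e-05, adjusted p = 5.33e-05) and rho = 0.95 (permutation p = 5e-05, adjusted p = 0.000267), with r = 0.96 without the 2 farthest. Mice with more counts on the parent had more on the copy. Reads of a gene can be placed on its partner, and the part of this in these relations was not tested. Gm15920 and Ndufa12 gave r = 0.96 (permutation p = 9e-05, adjusted p = 0.00024) and rho = 0.92 (permutation p = 0.00051, adjusted p = 0.00163), with r = 0.91 without the 2 farthest in the anterior and r = 0.99 (permutation p = 1e-05, adjusted p = 5.33e-05) and rho = 0.98 (permutation p = 1e-05, adjusted p = 8e-05), with r = 0.97 in the posterior portion. For Eno1b and Eno1 the anterior libraries gave r = 0.93 (permutation p = 6e-05, adjusted p = 0.000192) and rho = 0.90 (permutation p = 0.00083, adjusted p = 0.00221), with r = 0.84 and the posterior libraries r = 0.95 (permutation p = 3e-05, adjusted p = 0.00012) and rho = 0.92 (permutation p = 0.00019, adjusted p = 0.00076), with r = 0.95. Tpm3-rs7 and Tpm3 gave r = 0.55 (permutation p = 0.108, adjusted p = 0.192) and rho = 0.60 (permutation p = 0.0741, adjusted p = 0.132), with r = 0.73 in the anterior and r = 0.84 (permutation p = 0.00079, adjusted p = 0.00181) and rho = 0.63 (permutation p = 0.045, adjusted p = 0.09), with r = 0.72 in the posterior portion, and the difference to the other pairs was not tested.

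In C57BL/6J, where the copies held few counts, 1 of the 8 relations passed the adjusted threshold. Eno1b and Eno1 gave r = 0.91 (permutation p = 0.00273, adjusted p = 0.00546) and rho = 0.86 (permutation p = 0.0107, adjusted p = 0.0245), with r = 0.78 without the 2 farthest in the 8 posterior libraries. For Atp6v0c-ps2 r was 0.34 and 0.52 in the 6 anterior and 8 posterior libraries (permutation p = 0.517 and 0.203, adjusted p = 0.551 and 0.295; rho = 0.26 and 0.60, permutation p = 0.658 and 0.132), and for Tpm3-rs7 0.52 and 0.08 (permutation p = 0.293 and 0.861, adjusted p = 0.391 and 0.861; rho = 0.66 and -0.07, permutation p = 0.175 and 0.882). Gm15920 gave -0.62 and 0.30 (permutation p = 0.167 and 0.465, adjusted p = 0.267 and 0.535; rho = -0.72 and 0.24, permutation p = 0.122 and 0.582), and Eno1b in the anterior portion 0.37 (permutation p = 0.468, adjusted p = 0.535; rho = 0.43, permutation p = 0.419). Without the 2 farthest libraries these values were -0.89 and 0.27 for Atp6v0c-ps2, 0.81 and 0.26 for Tpm3-rs7, -0.88 and 0.10 for Gm15920 and 0.60 for Eno1b, so that the relation for Atp6v0c-ps2 turned in the anterior portion. Both values of a library are scaled by the same factor, and most mice gave a library to both portions. The permutations account neither for the shared factor, nor for housing, nor for reads placed on the partner gene.

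The portions were compared within mice, in the 6 C57BL/6J and 10 B6D2F1N mice with both libraries, and the choice of the copies did not use this contrast. Atp6v0c and Eno1 in both strains, and Atp6v0c-ps2 in B6D2F1N, had lower levels in the posterior than in the anterior amygdala, whereas the Tpm3 and Ndufa12 pairs showed no call in either strain. In B6D2F1N mice, Atp6v0c-ps2 was at 114, 220.3 and 327 CPM (lowest, median and highest) in anterior and at 78.8, 134 and 219 CPM in posterior libraries. It was lower in the posterior portion in 9 of 10 mice (posterior over anterior -0.63 ± 0.14 on the log2 scale with its standard error, adjusted p in edgeR = 0.0113). Atp6v0c was at 149, 295 and 438 CPM and 118, 183 and 288 CPM, also lower in 9 of 10 mice (-0.60 ± 0.14, adjusted p = 0.0154), and their sum fell by 0.61 on the log2 scale (adjusted p = 0.0132). Anterior libraries were at 764.8 ± 102.7 CPM of Eno1 and posterior ones at 556 ± 93.0 CPM (SD, n = 10, log2 fold change -0.46 ± 0.12, adjusted p = 0.0416, lower in 9 of 10), and its sum with Eno1b fell by 0.46 (adjusted p = 0.0421). Eno1b did not pass, at 26.4 ± 3.56 and 19.1 ± 4.17 CPM (-0.48 ± 0.17, adjusted p = 0.138, lower in 9 of 10), whereas DESeq2 called it lower (-0.47, adjusted p = 0.0409). The values of Tpm3-rs7 (-0.04 ± 0.15), Tpm3 (0.04 ± 0.12), Gm15920 (-0.23 ± 0.20) and Ndufa12 (-0.17 ± 0.17) had adjusted p from 0.614 to 0.934. As background, 4.0% of 27761 genes were called, 2.37% as lower in the posterior portion, and the median log2 fold change of all genes was 0.15.

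In C57BL/6J mice, Atp6v0c averaged 556 ± 114 CPM in anterior and 366 ± 42.2 CPM in posterior libraries (SD, n = 6) and was lower in the posterior portion of all 6 mice (-0.59 ± 0.15 on the log2 scale, adjusted p in edgeR = 0.0297). Eno1 was at 1035 ± 158 and 695 ± 159 CPM and lower in 5 of 6 (-0.59 ± 0.16, adjusted p = 0.0463), and both sums had the same calls (adjusted p = 0.0291 and 0.0467). Atp6v0c-ps2 itself, at 5.77 ± 1.08 and 3.33 ± 0.662 CPM, was lower in 5 of 6 but did not pass (-0.79 ± 0.40, adjusted p = 0.41). Of 25751 genes, 3.64% were called and 2.1% as lower. The test of whether the portion difference depended on strain called no member, sum or other gene among 29437 in edgeR (0.0%), with 871 genes but no member under an unadjusted p of 0.05, and DESeq2 called 7 genes and no member. For Atp6v0c-ps2 the interaction was 0.15 ± 0.24 and for Atp6v0c -0.02 ± 0.21 on the log2 scale.

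Some of these portion calls were lost when 1 mouse or the pairing was left out. Leaving out 1 B6D2F1N mouse at a time, Atp6v0c-ps2 and the Atp6v0c sum were called in 10 of 10 runs and Atp6v0c in 9, the exception being enriched mouse 3 (adjusted p = 0.0514), whereas Eno1 and its sum were called in 1 of 10, with adjusted p from 0.0189 to 0.117, the call being kept without standard mouse 3. Without standard mouse 1, 3 members and sums were called in place of 5. By edgeR, Atp6v0c-ps2 was at -0.61 (adjusted p = 0.03), Atp6v0c at -0.59 (0.0347) and their sum at -0.60 (0.0323). Eno1b was at -0.44 (0.259), Eno1 at -0.41 (0.112) and their sum at -0.41 (0.113). Tpm3-rs7, Tpm3 and their sum were at -0.05, -1.4e-05 and -0.01, and Gm15920, Ndufa12 and their sum at -0.27, -0.22 and -0.22. In C57BL/6J, all 4 calls were lost without any one of standard mice 1, 2, 3 and 4 and enriched mouse 3, and kept when enriched mouse 1 was left out, with adjusted p up to 0.163 for Atp6v0c and 0.197 for Eno1. Without the mouse as a block, the same libraries gave 0 of the 4 calls in C57BL/6J (adjusted p = 0.0522 for Atp6v0c) and 2 of the 5 in B6D2F1N, those of Eno1 and its sum, while Atp6v0c-ps2 (-0.65, adjusted p in edgeR = 0.0521) and Atp6v0c (-0.62, adjusted p = 0.0592) kept differences of similar size. Without the block but with all libraries of the strain, also those of mice with 1 portion, all 5 were called in B6D2F1N (adjusted p = 0.0349 for Atp6v0c-ps2, 0.0428 for Atp6v0c and 0.0233 for Eno1) and 2 of the 4 in C57BL/6J, Atp6v0c (adjusted p = 0.0179) and its sum.

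Cell-type markers moved with the portion in the same libraries. Of 4 excitatory neuron markers, 3 were called lower in the posterior portion in each strain, and their summed level in B6D2F1N was 1885 to 4557 CPM in anterior and 936 to 2874 CPM in posterior libraries (2325 to 4505 and 1014 to 5372 CPM in C57BL/6J). All 3 choroid plexus markers were called higher in the posterior portion in both strains, at 3.61 to 920.2 against 339 to 14080 CPM in B6D2F1N and 3.75 to 21.0 against 115 to 1446 CPM in C57BL/6J. Of 3 ependymal markers 2 were called higher in each strain (0 to 20.5 against 9.49 to 113 CPM in B6D2F1N), and of 4 astrocyte markers 2 in C57BL/6J and 1 in B6D2F1N (1120 to 2110 against 1616 to 2777 CPM in B6D2F1N). None of 5 oligodendrocyte, 4 microglia and 3 endothelial markers was called in either strain, and 1 of 5 inhibitory neuron and 1 of 3 striatal projection neuron markers was called lower in C57BL/6J. No listed marker had a median of 0 over all libraries, and Folr1, Kl, Adora2a, Foxj1, Ccdc153 and Tmem212 were at 0 in at least 1 library. The part of these changes in the portion differences of the members was not tested.

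**Figure D5:**
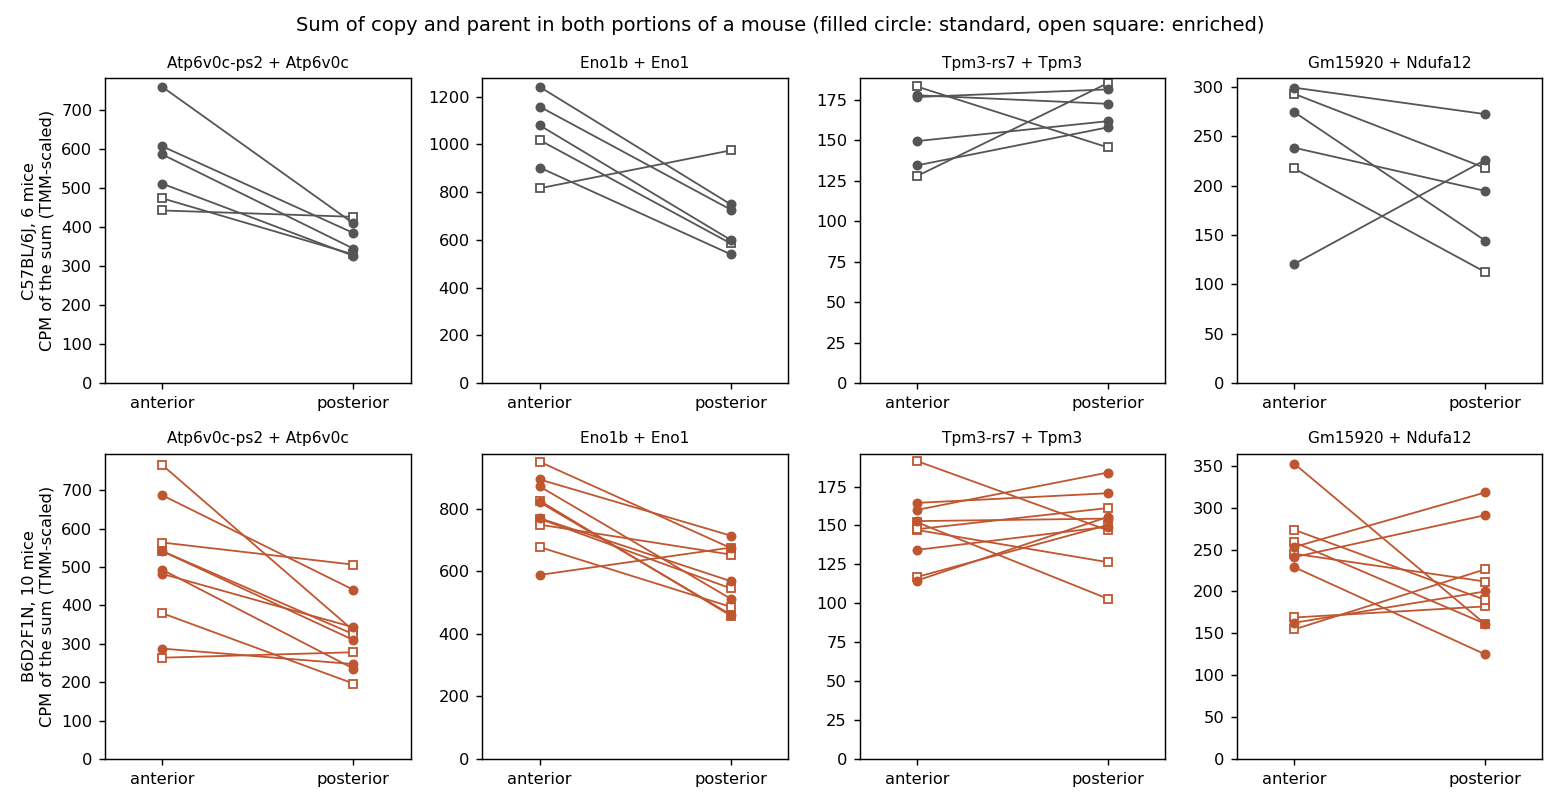
CPM of the sum of copy and parent in the anterior and posterior portion, each line 1 mouse, for the 6 C57BL/6J (upper row, grey) and 10 B6D2F1N mice (lower row, orange), with filled circles for standard and open squares for enriched housing. In the Atp6v0c panels the lines fall in 6 of 6 and 9 of 10 mice, while in the Tpm3 panels 4 of 6 and 7 of 10 rise.

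The share of the pair's counts on the copy did not differ detectably between portions or housings. Over 24 exact two-sided permutation tests (4 pairs, 2 portion comparisons and 4 housing comparisons), the lowest p was 0.0541 and the lowest adjusted p 0.4, and none passed either threshold. The copy with that lowest p was Tpm3-rs7 in the B6D2F1N posterior amygdala, at 18.4% in standard and 16.8% in enriched housing (n = 5 and 6, exact permutation p = 0.0541, adjusted p = 0.4). Atp6v0c-ps2 was at 43.0% in the anterior and 42.5% in the posterior portion of 10 B6D2F1N mice (permutation p = 0.315, adjusted p = 0.629), a difference of -0.56 percentage points, higher in 5 of 10. In the 2 enriched against 4 standard anterior C57BL/6J libraries no p under 0.0667 was possible. Eno1b (0.0752% in standard and 0.116% in enriched housing) and Tpm3-rs7 (0.448% and 0.846%) were at that p (adjusted p = 0.4). The test could therefore not have passed the threshold for them. Atp6v0c-ps2 and Gm15920 had a permutation p of 0.267 and 0.667 there.

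Housing called no copy, parent or sum. In edgeR the log2 fold changes of enriched over standard housing, over the 4 combinations of strain and portion, were -0.07 to 0.16 for Atp6v0c-ps2 and -0.45 to 0.0041 for Atp6v0c, the latter with a lowest unadjusted p of 0.0682 (adjusted p = 0.796). They were -0.08 to 0.32 for Eno1b, -0.28 to 0.14 for Eno1, -0.35 to 0.78 for Tpm3-rs7, -0.19 to 0.09 for Tpm3, -0.61 to -0.16 for Gm15920 and -0.18 to 0.11 for Ndufa12. No member or sum had an unadjusted p under 0.05, the lowest being 0.0564 for Tpm3-rs7 (adjusted p = 0.762), and DESeq2 called none. Without B6D2F1N standard mouse 1, edgeR called no member or sum in either portion of B6D2F1N either. Among all genes edgeR called 0.0%, 0.0163%, 0.0% and 0.0% in the C57BL/6J anterior, C57BL/6J posterior, B6D2F1N anterior and B6D2F1N posterior comparisons, while an unadjusted p under 0.05 was reached by 1418, 2515, 1553 and 1716 genes, and DESeq2 called 100, 319, 8 and 14 genes. The summed oligodendrocyte markers of the C57BL/6J posterior libraries did not overlap between housings (7790 to 12350 CPM in standard, 17530 to 27230 CPM in enriched housing), and their part in the values there was not tested. Standard errors reached 2.23 on the log2 scale for Gm15920 in C57BL/6J, where few counts leave its housing difference undetermined, and 0.21 to 0.27 for Atp6v0c.

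The strain difference did not differ detectably by housing. By edgeR, interaction terms called 0.0% of the 26353 genes tested for the anterior portion and 0.0% of the 27871 tested for the posterior one, while an unadjusted p under 0.05 was reached by 1576 and 2335 genes, and 7 and 37 genes called by DESeq2, none of them a member or sum. The term for Atp6v0c was 0.44 ± 0.42 (standard error, edgeR adjusted p = 1.00) in the anterior and 0.19 ± 0.32 (adjusted p = 0.963) in the posterior portion. For Tpm3-rs7 in the anterior portion it was -0.89 ± 0.47 (unadjusted p = 0.0691, adjusted p = 0.868), the lowest p of the members, with 2 C57BL/6J libraries in enriched housing.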

How the data were processed

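Per the labels, RNA of laser-captured amygdala cells was amplified with a low-input kit, made into polyA-selected libraries and sequenced as single reads of 72 bases. The authors deposited raw read counts per Ensembl gene, made, per the submitters' processing notes, with bcl2fastq, FastQC (0.11.7), Trimmomatic (0.38), HISAT2 (2.1.0), SAMtools (1.8) and HTSeq (0.11.2) on GRCm38. The annotation release and strand setting of the counting are not given in the sources used here. Groups came from the sample labels. The last 5 lines of each file, which name no gene, were left out of library sizes: reads on no feature made up 13.7% to 26.4%, ambiguous reads 3.06% to 3.74% and reads aligned at more than 1 place 6.23% to 10.9% of the reads tallied. This bears on copies and parents, since the count of each holds the reads placed at 1 site.

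Counts were tested with edgeR (4.0.16, R 4.3.3) by its quasi-likelihood test with TMM scaling, for genes with at least 10 counts over the libraries of a comparison, with Benjamini-Hochberg adjustment of p over all genes tested and 0.05 as threshold. Strain and housing were compared within portion, and portion within mouse, with the mouse as a block in the 16 mice that gave both libraries. The pairing is by animal, from the labels: after subtracting group means, the 2 libraries of a mouse had r = -0.105 to 0.222 (median 0.048) over 16022 genes. Sums of copy and parent replaced both genes in a second fit. DESeq2 (1.42.0), its size factors, filterByExpr, no filter, fits without the block and leaving out each library or mouse were the alternatives. In simulated counts of the standard anterior strain comparison (24291 genes), 29% of genes changed by 2-fold and 97% of those changed by 4-fold were recovered. For the B6D2F1N portion comparison (27809 genes) these were 81% and 100%, and for the C57BL/6J posterior housing comparison (24452 genes) 22% and 98%. The simulation set the same assumed dispersion for all genes and changed only genes above a minimum mean count. Recovery of changes in genes with fewer counts was not simulated.

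Transcripts and coordinates were those of GENCODE M21 on GRCm38, which matched 52403 of the 52636 gene IDs. Each copy was aligned to its parent by local pairwise alignment in Biopython (1.88), and other copies of the parents were sought with BLAST (2.17.0). A window of 72 bases was called shared if it occurred without a difference in a transcript of another gene. The 8 members, the gene lists and the tests were chosen with earlier results of these data known. For each copy the 3 genes most like it were named by rule. Intervals and limits at 0 counts (3 counts) cover counting error only.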

Additional observations from a re-analysis of the deposited data

Results flagged for a closer look

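In 3 of the 112 groups of libraries examined, 1 library lay farther from the rest than Dixon's 95% limit, where chance alone gives about 5.6 (1 in 20). The level of Atp6v0c-ps2 in C57BL/6J enriched posterior mouse 1 was 4.61 CPM, with the other 3 libraries at 2.90 to 3.11 CPM. The share of Eno1b in B6D2F1N standard posterior mouse 3 was 3.75% of the pair's counts, with the others at 3.14% to 3.28%. The share of Gm15920 in B6D2F1N enriched posterior mouse 6 was 8.89%, with the others at 9.80% to 10.2%.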

How the results depend on the processing

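Of 1196 values computed under alternatives for 131 results, 1127 kept their direction and their side of the threshold or stayed within the spread between libraries, and 69 did not. None was counted as reversed, but a change of sign within that spread or short of the threshold did not count. With 1 mouse left out, Ndufa12 ranged from -0.27 to 0.08 in the standard anterior strain comparison. The Tpm3 sum ranged from -0.24 to 0.23 in the enriched anterior one. All 236 log2 strain differences of the copies stayed above 0 (4.13 to 8.74), and the sums ranged from -0.55 to 0.30. Leaving out 1 library moved the value of Gm15920 to between 6.90 and 8.28 (standard anterior), 6.25 and 7.05 (standard posterior), 7.20 and 8.74 (enriched anterior) and 6.12 and 7.26 (enriched posterior), and that of Eno1b in the enriched posterior comparison to between 4.13 and 5.02. With DESeq2 the genes called were 257, 392, 137 and 342 in the 4 strain comparisons, 1512 and 1994 by portion in C57BL/6J and B6D2F1N, 100, 319, 8 and 14 by housing, 7 and 37 for strain by housing and 7 for strain by portion, and 3, 3 and 1 of the other copies were called in the first 3 strain comparisons. Without a filter on low counts, 57 genes were called in the enriched anterior strain comparison, 274 and 112 by housing in C57BL/6J anterior and posterior, and 2 for strain by portion. One fit over 4 groups called 44 genes in the enriched anterior strain comparison. The cause of these moves was not tested.

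For portion, the fit with the mouse as replicate block called 4 members and sums in C57BL/6J and 5 in B6D2F1N. With no replicate block 0 and 2 were called, with no block over all libraries 2 and 5, with DESeq2 size factors and with filterByExpr 2 and 5, and with DESeq2 4 and 6, Eno1b being the call gained. For strain and housing only, no paired analysis was possible because the groups compared hold different mice, so that a number shared between their libraries ties no samples. Leaving out 1 library or mouse gave 59 to 166 genes in the standard posterior strain comparison (166 without B6D2F1N standard mouse 1), 1 to 15 in the enriched anterior one, 602 to 1070 for portion in C57BL/6J, 0 to 4 and 2 to 5 members and sums for portion in C57BL/6J and B6D2F1N, 0 to 172 genes for housing in C57BL/6J posterior (172 without enriched mouse 3) and 0 to 10 in B6D2F1N posterior (10 without standard mouse 1). The values without B6D2F1N standard mouse 1 for other copies, neighbours and pathway lists were added after seeing the data. Interaction terms were not refitted with libraries left out. Of the 3 genes most like each copy, Spearman's rho shared 1, 1, 0 and 0 with the first choice and the B6D2F1N libraries alone shared 0 for each copy. Counts of 0 to 9 in C57BL/6J limit what can be said of Gm15920 there.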
